A study of Mus musculus with 24 samples.

Results

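The 12 CD8 T cell libraries of a 24-library mouse study are described here by their number, 3 and 4 against 1 and 2. Each set of 6 held 2 libraries of each of 3 genotypes. The labels give the numbers 1 to 4 within every genotype and do not say whether a number marks an animal, a culture, a day or a library preparation. The split was chosen by the CD8 gene counts themselves, in which Bnip3, Egln3 and Ak4 stood out. The CD8 difference between the sets is therefore given as a description, with no test. Tests are given for the CD4 libraries, which did not enter that choice, and for the other quantities named below.

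The study measured poly(A) RNA from sorted spleen T cells of C57BL/6 mice aged 12 weeks, after 2 days in vitro with antibodies to CD3 and CD28, which engage the T cell receptor and its main costimulatory receptor. Its purpose, from the series title, was the effect of Pou2af1, a coactivator of octamer-binding transcription factors, on activated T cells. Wild-type controls (WT) were CD4.Cre- Pou2af1fl/fl, so they carried the floxed allele without Cre. Heterozygotes (Het) were CD4.Cre+ with 1 floxed allele, and knockouts (KO) were CD4.Cre+ with both alleles floxed. The CD4 promoter drives this Cre from the thymic stage that precedes both lineages, so CD8 cells carry the deletion as well. Pou2af1 ran from 22.0 to 35.0 CPM (read counts scaled to a common library total) in WT, 13.5 to 16.5 in Het and 0.761 to 2.41 in KO CD8 libraries, which follows the labels. Its log2 change between the number sets in CD8 was 0.11 (SE 0.18), with overlapping sets, and by genotype it was 0.52 in WT, 0.094 in Het and -1.04 in KO. In CD4 libraries Pou2af1 rose by 0.68 (SE 0.10, edgeR adjusted p = 0.000334).

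Cells sense oxygen through prolyl hydroxylases, among them the products of Egln1 and Egln3, which mark the alpha subunit of hypoxia-inducible factor (HIF) for destruction by the von Hippel-Lindau protein. When oxygen is low the marking slows, HIF accumulates and binds DNA at a core motif read as ACGTG or GCGTG, and genes for glycolysis, glucose import, lactate export and removal of mitochondria are transcribed. T cells stimulated through the T cell receptor also raise HIF and glycolysis with oxygen present. Egln3, Bnip3 and Ak4 are well-known genes of this response: a prolyl hydroxylase that feeds back on HIF, a mitophagy receptor and a mitochondrial adenylate kinase.

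The 250 bases before the start of these 3 genes are shown because they led the difference between the sets. The sequences are RefSeq windows on GRCm38.p6, 5′ to 3′ on the gene's strand, and capitals mark each ACGTG or GCGTG on either strand (read as CACGT or CACGC on the other). Egln3 lies on chromosome 12 (54178981 to 54203860, minus strand, gene coordinates of the deposited table on GRCm38), Bnip3 on chromosome 7 (138890836 to 138909519, minus strand) and Ak4 on chromosome 4 (101419277 to 101466995, plus strand). For Ak4 the first of 4 listed start windows is shown.
Egln3, chr12:54203875-54204124: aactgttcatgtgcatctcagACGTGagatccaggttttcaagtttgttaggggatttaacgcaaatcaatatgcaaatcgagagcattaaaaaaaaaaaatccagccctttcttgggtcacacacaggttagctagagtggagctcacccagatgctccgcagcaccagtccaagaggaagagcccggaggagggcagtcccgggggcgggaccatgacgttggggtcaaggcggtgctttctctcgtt
Bnip3, chr7:138909507-138909756: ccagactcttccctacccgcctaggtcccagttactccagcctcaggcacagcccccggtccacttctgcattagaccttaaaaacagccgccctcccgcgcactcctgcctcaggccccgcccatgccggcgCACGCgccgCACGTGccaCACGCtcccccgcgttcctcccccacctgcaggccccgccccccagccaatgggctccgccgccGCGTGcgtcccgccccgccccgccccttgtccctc
Ak4, chr4:101419039-101419288: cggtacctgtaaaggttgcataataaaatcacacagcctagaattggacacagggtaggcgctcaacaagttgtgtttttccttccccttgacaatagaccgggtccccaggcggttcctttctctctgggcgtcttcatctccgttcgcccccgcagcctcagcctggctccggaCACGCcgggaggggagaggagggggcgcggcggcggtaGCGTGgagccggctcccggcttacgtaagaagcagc

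The Egln3 window held 1 match, the Ak4 window 2 and the Bnip3 window 5 in 4 separate runs, since ACGTG and CACGT overlap there. Such a short motif is common: 38.6% of all 32851 windows held a match. A gene was counted as holding a match where any of its listed windows did. On that count 62.6% of the 8617 tested genes with a listed window held one. Shares of genes and of windows are therefore unlike measures. Among the 52 tested low-oxygen and glycolysis genes with a window, 45 held it (86.5%). Of the 12 genes highest in numbers 3 and 4, 11 had a window and 7 of these held a match. Of the 12 genes lowest there, 7 had a window and 0 held one. That small group does not stand for all lower genes. Over all genes lower with no overlap, 258 of 464 with a window held a match (55.6%). Of those higher with no overlap, 303 of 426 did (71.1%). A match describes letters in a window and is not evidence of binding.

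CD8 libraries held 12.6 M to 16.6 M gene counts, and a count of 3 corresponded to 0.181 to 0.239 CPM. All 8 CD8 T cell markers were expressed, with Cd8a at 635 to 760 CPM and Cd8b1 at 290 to 347. Their summed level was 2767 to 2890 CPM in numbers 1 and 2 and 2467 to 2730 in numbers 3 and 4, with no overlap. Of the 8, 1 had a change above 0 and Cd3d, a chain of the T cell receptor complex, lay lower with no overlap (223 to 288 against 161 to 195 CPM). Cd4 stayed at 0.212 to 1.75 CPM. The 8 neutrophil markers summed to at most 0.141 CPM, with S100a8 and S100a9 at 0 counts in all 12 libraries. The 11 macrophage markers summed to 8.45 to 13.9 CPM, of which Apoe made 5.77 to 9.79 and Cd68 2.09 to 3.78, while C1qa was at 0 in every CD8 library. The 12 B cell markers summed to 412 to 492 CPM in numbers 1 and 2 and to 392 to 431 in numbers 3 and 4, of which Ighm, the constant region of IgM, made 331 to 410. In bulk RNA, fewer cells of a type and less RNA per cell cannot be told apart.

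Xist and the Y-linked Ddx3y gave 3 female and 3 male libraries in numbers 1 and 2, but 1 female and 5 male in numbers 3 and 4. In Het, both libraries of numbers 1 and 2 were female and both of numbers 3 and 4 male, so set and sex cannot be told apart within Het. Only autosomal genes were analysed, and sex as a covariate was tried as an alternative. Total counts did not differ beyond the spread between libraries (14.6 M ± 0.831 in numbers 3 and 4 against 14.0 M ± 1.46 in numbers 1 and 2, SD, n = 6 each; exact permutation test within genotypes, 2-sided p = 0.398, smallest possible p = 0.00926). Of 5 such measures, the share of ambiguous reads had the lowest p (1.04% against 1.08%, exact permutation p = 0.0185, Benjamini-Hochberg adjusted 0.0926).

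The KO library numbered 2 stood apart from the other CD8 libraries. It was also the only female one of KO (Xist 1910 CPM), so leaving it out leaves only male KO libraries. Its mean log2(CPM + 1) over 22 cholesterol synthesis genes was 5.14, against 6.07 to 6.42 in the other 5 libraries of numbers 1 and 2. Its score for glycolysis was 5.86 against 6.18 to 6.34, and for S phase genes 7.39 against 7.60 to 7.64. Its score for the integrated stress response, a programme of amino acid synthesis and transport genes under Atf4, was 7.20, where the other 11 CD8 libraries lay between 5.86 and 6.64. Some of the results that rest on this library are given with and without it, a choice made after the data had been seen.

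Of 11833 autosomal genes tested, 202 lay at least 1.5-fold higher in numbers 3 and 4 with every library above every library of numbers 1 and 2 (1.71%), and 145 lay lower in the same way (1.23%). Without the fold threshold 554 genes were higher with no overlap (4.68%) and 597 lower (5.05%), and these 2 shares are the background for the CD8 list counts that follow, from which nothing is read since the rule used this contrast. Without the KO library numbered 2, the counts with the threshold were 241 and 143. The median log2 change over all tested genes was -0.01. Among genes of at least 5 CPM with no overlap, the 4 largest changes on the higher side were those of Egln3, Bnip3, Ak4 and Slc16a3, and on the lower side those of Il23a, Il3, Idi2 and Tnfsf4.

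Egln3 ranged from 2.31 to 6.53 CPM in numbers 1 and 2 (median 3.80) and from 26.8 to 78.7 in numbers 3 and 4 (median 47.2). Bnip3 ranged from 2.27 to 9.56 CPM (median 6.89) in numbers 1 and 2 and from 21.0 to 95.5 (median 53.6) in numbers 3 and 4. Ak4 ranged from 2.27 to 11.6 CPM (median 9.26) and from 31.6 to 85.9 (median 60.1). The sets did not overlap for any of the 3 genes, with log2 changes of 3.61 (SE 0.29), 3.06 (SE 0.42) and 2.81 (SE 0.33). Slc16a3, the monocarboxylate transporter that exports lactate, lay at 9.97 to 22.5 CPM in numbers 1 and 2 and at 41.6 to 145 in numbers 3 and 4, a log2 change of 2.64 (SE 0.34).

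Numbers 3 and 4 were not uniform. WT 4, Het 3 and KO 4 held 66.3 to 95.5 CPM of Bnip3, whereas WT 3 held 21.0, Het 4 21.4 and KO 3 40.9. Ak4 gave the same split, with 69.4 to 85.9 CPM in the first 3 libraries and 31.6 to 50.9 in the others. The high library was thus numbered 4 in WT and KO but 3 in Het. Cd200, which codes for an inhibitory surface ligand, did not share this order: its highest value, 216 CPM, was in Het 4 and its lowest, 130 CPM, in Het 3.

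**Figure D1:**
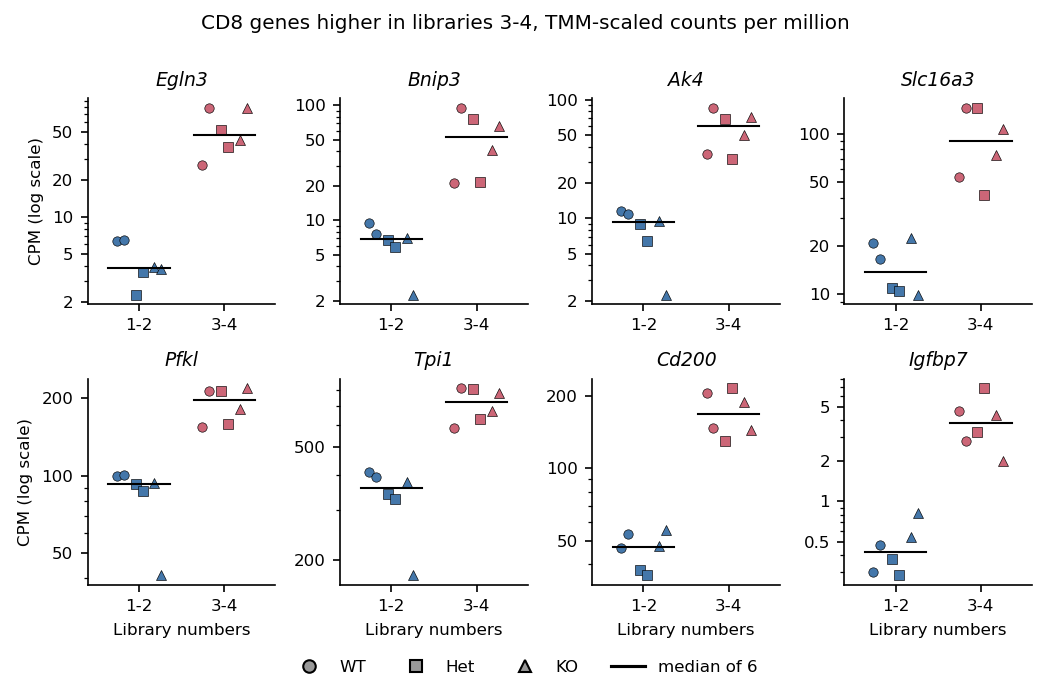
TMM-scaled CPM on a log axis of 8 genes in the 12 CD8 libraries, by library number (1-2 blue, 3-4 red) and genotype (symbol), with the median of 6 libraries as a line. Every library of numbers 3 and 4 lies above every library of numbers 1 and 2 in all 8 genes, while Bnip3 within numbers 3 and 4 runs from 21.0 to 95.5 CPM. Igfbp7 is close to the counting floor in numbers 1 and 2.

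Among 11 tested regulators of HIF, 4 lay higher with no overlap (Egln3, Egln1, Cited2 and Siah2) and 0 lower, and the list's median log2 change was 0.21. Egln1, the main oxygen sensor, lay at 77.3 to 93.7 CPM in numbers 1 and 2 and at 102 to 159 in numbers 3 and 4. Cited2, which competes with HIF for its coactivators, was 14.8 to 24.4 CPM against 29.9 to 33.3. Siah2, a ubiquitin ligase for prolyl hydroxylases, differed least of the 4, at 27.0 to 31.7 against 33.6 to 39.3 CPM. Hif1a itself overlapped, at 320 to 531 CPM against 417 to 596.

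The list of 43 low-oxygen response genes shares Egln3, Egln1 and Cited2 with that list, and 35 of its members were tested while 8 fell below the filter on low counts. Of the 35, 17 lay higher with no overlap and 0 lower, with a median log2 change of 0.58. Nrn1, which codes for a membrane-anchored neuritin, was 33.2 to 57.5 CPM in numbers 1 and 2 and 122 to 197 in numbers 3 and 4. Of the collagen-modifying enzymes, Plod2 lay at 8.25 to 12.7 CPM in numbers 1 and 2 and at 16.3 to 40.5 in numbers 3 and 4, and P4ha1 had a log2 change of 1.10. Bnip3l, a mitophagy receptor related to Bnip3, differed by 0.87. Vegfa, the vascular growth factor, and Ndrg1 had changes of 0.70 and 0.95 with overlapping sets.

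In glycolysis, 17 of 26 tested genes lay higher with no overlap and 0 lower, and the median log2 change was 0.65. Along the pathway these included the glucose transporter Slc2a1, at 43.6 to 68.4 CPM in numbers 1 and 2 and 89.5 to 160 in numbers 3 and 4. The phosphofructokinase subunit Pfkl was 41.0 to 100.3 against 154 to 219 CPM. Triosephosphate isomerase, Tpi1, was 176 to 407 against 586 to 809 CPM. The lowest value of both Pfkl and Tpi1 came from the KO library numbered 2, and without that library the list's median was 0.58, again with 17 members higher and 1 lower. Pdk1, which holds pyruvate back from mitochondria, had a change of 0.84, and lactate dehydrogenase Ldha one of 0.66. Reads placed at several loci were not counted, so genes with processed pseudogenes, such as Gapdh, Aldoa and Ldha, keep only uniquely placed reads.

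Of 38 nuclear genes of oxidative phosphorylation, 0 were free of overlap in either direction, beside 4.68% higher and 5.05% lower among all genes. Their log2 changes lay between -0.11 and 0.29, with a median of 0.06. The highest was that of Cycs, at only 3.99 to 7.98 CPM in numbers 1 and 2 and 6.86 to 8.75 in numbers 3 and 4. The leading genes were chosen for sets that do not overlap, which fixes the same sign in each genotype, so only sizes are given. Within WT, Het and KO alone, 2 libraries against 2, the log2 change of Egln3 was 3.05, 3.93 and 3.97. That of Bnip3 was 2.77, 2.95 and 3.50, and that of Slc16a3 2.41, 3.12 and 2.46. The median of the glycolysis list was 0.53, 0.67 and 0.79 in the same order.

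**Figure D2:**
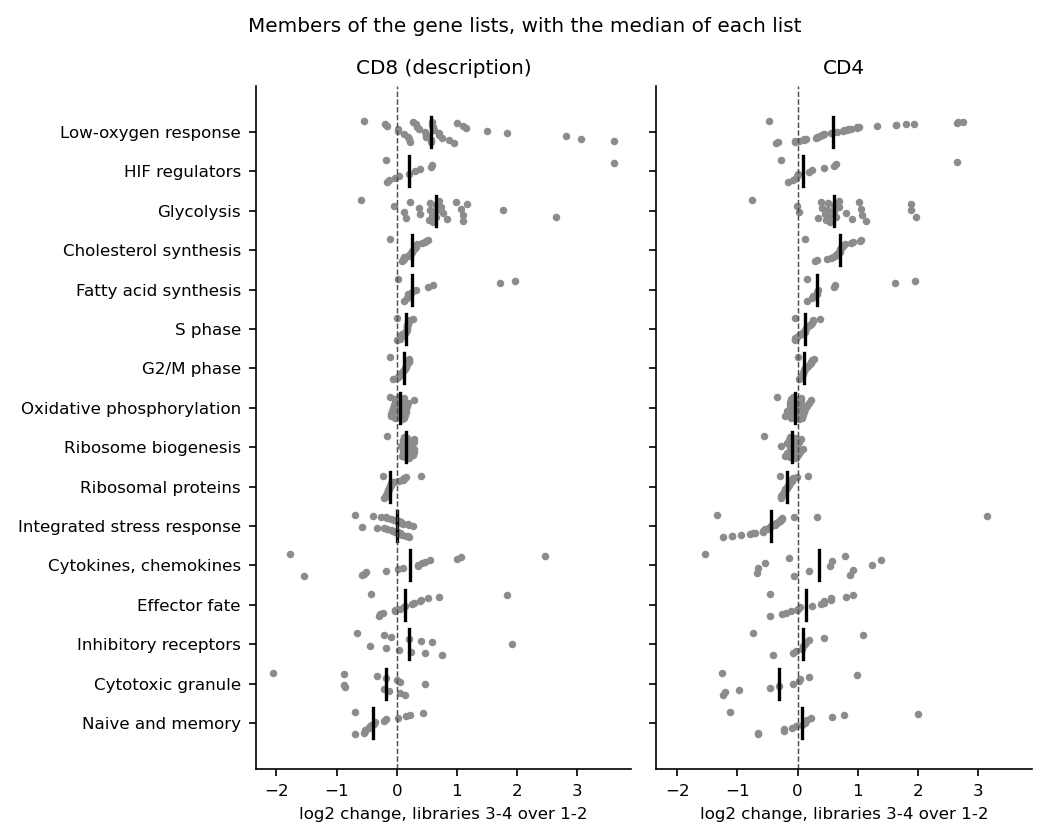
Each point is 1 gene of a list and gives its log2 change, libraries 3-4 over 1-2, in CD8 (left) and CD4 (right), and bars give the list medians. The low-oxygen list has a median of 0.58 in both cell types, while the integrated stress response list has 0.01 in CD8 and -0.45 in CD4.

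Of lipid genes, the desaturases Scd1 and Fads2 differed most. Scd1, which makes monounsaturated fatty acids, was 7.91 to 32.2 CPM in numbers 1 and 2 and 38.4 to 95.2 in numbers 3 and 4. Fads2 was 7.49 to 29.5 against 35.2 to 80.8 CPM. In all, 4 of 11 fatty acid synthesis genes lay higher with no overlap and 0 lower. Of 22 tested cholesterol synthesis genes only Lss, which closes the sterol rings, was free of overlap, at 29.5 to 103 against 107 to 120 CPM. The cholesterol list's median was 0.25, and it was 0.11 without the KO library numbered 2. By genotype it was 0.02 in WT, 0.12 in Het and 0.64 in KO.

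Differences in growth genes were small. Of S phase and of G2/M genes, 4 of 20 each lay higher with no overlap and 0 lower, with medians of 0.16 and 0.12. Without the KO library numbered 2 both medians were 0.11, with 6 S phase and 4 G2/M genes higher. Cdc6, a replication licensing factor, was 76.1 to 106 CPM against 107 to 123, and Ccna2, cyclin A2, 313 to 361 against 370 to 420. None of 23 ribosome biogenesis genes was free of overlap, and 1 of 30 ribosomal protein genes lay higher and 5 lower. The higher one was Rpl11, at 8.94 to 12.1 against 12.2 to 16.3 CPM. Here too only uniquely placed reads were counted. Rpl23 was 437 to 481 CPM in numbers 1 and 2 and 401 to 412 in numbers 3 and 4.

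Socs2, which damps cytokine receptor signals, was 16.9 to 31.8 CPM in numbers 1 and 2 and 44.2 to 88.7 in numbers 3 and 4. The cytokine gene Lif was 31.8 to 57.1 against 70.5 to 155 CPM. Both belong to the list of 15 tested IL-2 and STAT5 response genes, of which 2 lay higher and 1, Stat5a, lower with no overlap. Batf3, a transcription factor of the AP-1 family, was 1.14 to 3.44 against 7.08 to 11.6 CPM, and its partner Irf4 509 to 566 against 581 to 739. In total 3 of 16 effector fate genes lay higher with no overlap and 0 lower.

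Among 13 tested receptors of the inhibitory and costimulatory list, Cd200, Icos, Ctla4 and Btla lay higher with no overlap and Tigit lower. Cd200 was 35.8 to 55.1 CPM in numbers 1 and 2 and 130 to 216 in numbers 3 and 4. Ctla4, which competes with CD28 for its ligands, was 244 to 334 against 356 to 531 CPM, and Icos, a costimulatory relative of CD28, 124 to 165 against 179 to 300. Tigit was 77.3 to 103 against 48.2 to 68.1 CPM. Of the 12 largest higher values, those not yet named were Spp1 (osteopontin, log2 change 2.47), Ccdc141 (2.01), the GTPase gene Rragd (1.99), the growth factor gene Fgf2 (1.94) and Gucy1a1, a subunit of soluble guanylate cyclase (1.92).

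On the lower side, Il23a, which codes for the p19 subunit of IL-23, ranged from 24.5 to 156 CPM in numbers 1 and 2 (median 32.9) and from 11.2 to 17.4 in numbers 3 and 4 (median 13.1). The value of 156 came from the KO library numbered 2. The log2 change was -1.78 (SE 0.35), and -1.26 without that library. Il3, the haematopoietic cytokine, was 5.97 to 23.0 against 2.01 to 4.47 CPM, and its change of -1.77 became -1.41 without it. Both genes remained free of overlap. The chemokine gene Ccl9 was 53.4 to 118 against 16.8 to 38.8 CPM, whereas the chemokine gene Ccl3 lay higher in numbers 3 and 4, at 257 to 367 CPM against 193 to 249. Of 16 tested cytokine and chemokine genes, 3 lay higher and 3 lower with no overlap. Ifng overlapped, with a log2 change of 0.01.

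Tnfsf4, the OX40 ligand, was 29.8 to 48.5 CPM in numbers 1 and 2 and 8.41 to 19.2 in numbers 3 and 4. Klrd1, the CD94 chain of NKG2 receptors, was 124 to 248 against 44.5 to 116 CPM. Its log2 change of -1.29 became -1.12 without the KO library numbered 2. Within numbers 3 and 4 its highest values, 116 and 91.9 CPM, were in Het 3 and WT 4, and the other 4 libraries lay between 44.5 and 53.8. Plaur, the urokinase receptor, was 7.80 to 24.1 against 3.91 to 6.07 CPM. The protease inhibitor gene Serpine2 was 171 to 236 against 55.7 to 85.9 CPM. The others of the 12 lowest were Idi2 (log2 change -1.56), Slc15a3 (-1.44), Cd72 (-1.43), Arc (-1.42) and Slc37a2 (-1.38).

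Of 13 tested cytotoxic granule genes, 5 lay lower with no overlap and 0 higher. They were Gzmc, Serpinb6b, Serpinb9, Fasl and Ctsw. Gzmc was low throughout, at 1.83 to 6.64 CPM in numbers 1 and 2 and 0.353 to 1.11 in numbers 3 and 4. The filter on low counts, grouped by number set, could keep Gzmc on numbers 1 and 2 alone. The list's median log2 change was -0.18. Without the KO library numbered 2 it was -0.12, with 5 members lower and 1 higher. Fasl, the death ligand, was 29.0 to 34.7 CPM in numbers 1 and 2 and 15.6 to 22.5 in numbers 3 and 4. Serpinb9, which shields killer cells from granzyme B, was 485 to 698 against 234 to 340 CPM. The main effector genes Gzmb and Prf1 overlapped, with log2 changes of 0.47 and -0.13.

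**Figure D3:**
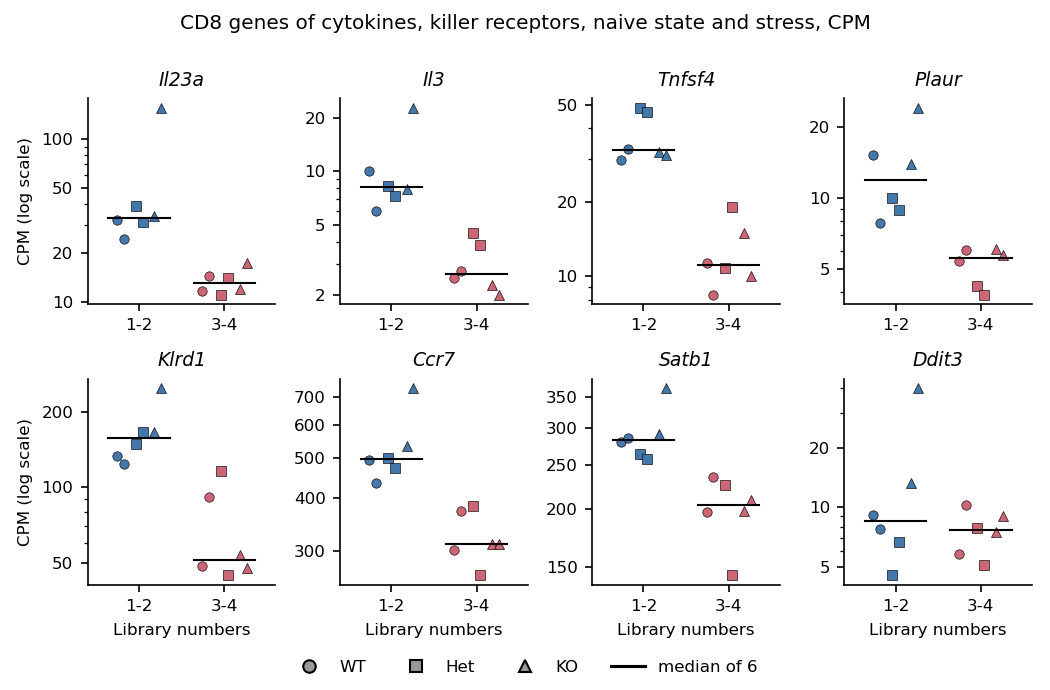
TMM-scaled CPM on a log axis of 8 genes in the 12 CD8 libraries, drawn as in the plot of higher genes. The KO library numbered 2 is the highest of its set in Il23a (156 CPM), Il3, Plaur, Klrd1, Ccr7, Satb1 and Ddit3, and Ddit3 overlaps between the sets.

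Of 16 genes of naive and memory T cells, 6 lay lower with no overlap and 0 higher, and the median log2 change was -0.40. Ccr7, the lymph node homing receptor, was 436 to 733 CPM in numbers 1 and 2 and 262 to 384 in numbers 3 and 4. Satb1, a chromatin organiser, was 257 to 366 against 144 to 234 CPM. Cd27, a costimulatory receptor, was 125 to 142 against 86.2 to 111 CPM, and Id3 24.4 to 31.8 against 16.5 to 22.8. Tcf7, which codes for the transcription factor TCF1, had a log2 change of -0.46 and Bach2 one of -0.37, both with no overlap, and Klf2 one of 0.02 with overlap. The list's score was lowest in Het 4, at 5.73, whereas that of Het 3, at 6.2201, lay just below the lowest of numbers 1 and 2, at 6.2203.

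None of 29 integrated stress response genes was free of overlap, and the list's median was 0.01. It was 0.14 without the KO library numbered 2, and by genotype it was 0.16 in WT, 0.32 in Het and -0.37 in KO. Ddit3, the stress factor CHOP, was 4.55 to 39.8 CPM in numbers 1 and 2, with the next value below the top at 13.2, and 5.15 to 10.3 in numbers 3 and 4. None of 30 type I interferon response genes was free of overlap, and the list's score ranged from 4.75 to 6.04 in numbers 1 and 2 and from 4.32 to 6.07 in numbers 3 and 4. The interferon gene Mx1 ran from 6.45 to 57.3 CPM within numbers 3 and 4 alone.

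Markers of other cell types that lay lower in numbers 3 and 4 were Ms4a1, the B cell antigen CD20 (2.14 to 5.91 against 0.960 to 1.78 CPM), Cd74, the MHC class II invariant chain (31.9 to 49.9 against 21.3 to 29.1), and Zbtb46, a factor of dendritic cells (6.77 to 16.5 against 3.60 to 4.63). The 10 tested B cell markers had a median log2 change of -0.60. The dendritic markers Xcr1, Siglech and Clec9a were at 0 in 8, 11 and 10 of the 12 libraries. Of CD4 lineage markers, Cd5 and Gata3 lay lower with no overlap, and the summed level of all 6 was 336 to 407 CPM against 246 to 301. Most of that sum was Cd5, a T cell surface gene, at 215 to 367 CPM, while Cd4 was at most 1.75. Of the 5 tested members, 1 had a change above 0, at 1.06. The sum is therefore mainly a reading of Cd5. Marker sums did not all lie lower. The 6 plasma cell markers summed to 1.31 to 1.94 CPM in numbers 1 and 2 and to 2.28 to 3.94 in numbers 3 and 4, with no overlap, and Tnfrsf17 was at 0 in all 12 libraries. Of these, Sdc1 (syndecan-1) was 0.356 to 0.895 against 1.52 to 2.48 CPM, and it also rose in CD4 (log2 change 1.51, edgeR adjusted p = 0.00101). Its CD8 levels were low, and the filter on low counts, grouped by number set, could keep Sdc1 on numbers 3 and 4 alone. The 6 dendritic markers summed to 7.57 to 17.7 against 3.88 to 6.22 CPM, and the 7 natural killer markers to 12.8 to 19.7 against 8.51 to 17.4. The part of these cells in the gene differences above was not tested.

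**Figure D4:**
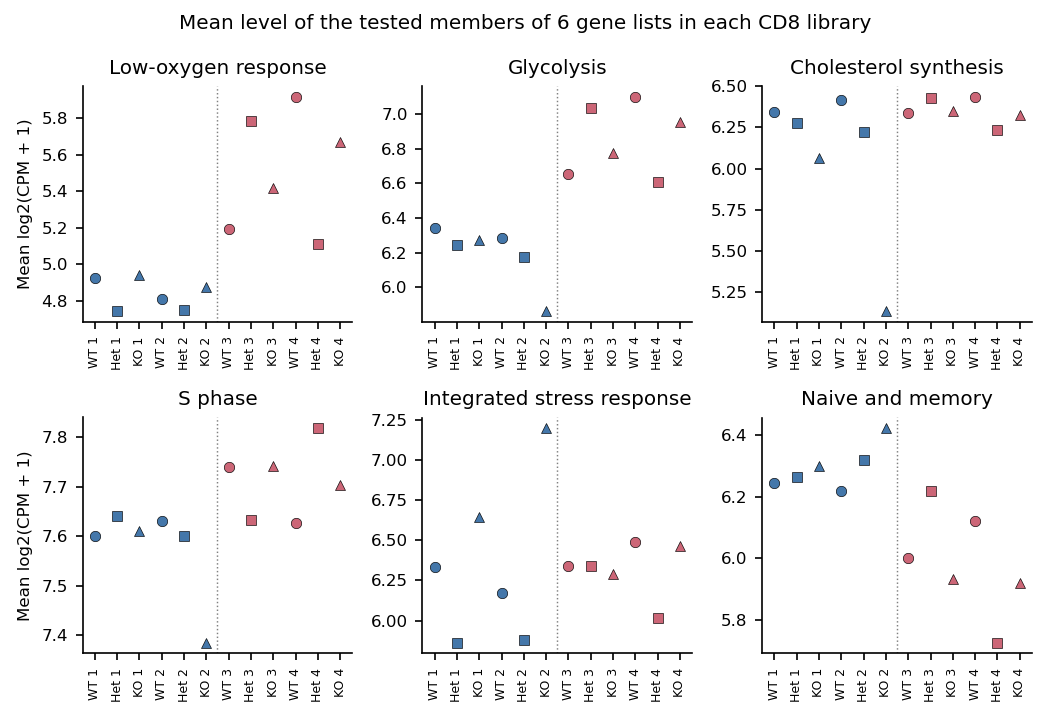
Mean log2(CPM + 1) of the tested members of 6 lists in each CD8 library, with numbers 1 and 2 left of the dotted line. The KO library numbered 2 has the lowest cholesterol (5.14) and S phase (7.39) scores and the highest integrated stress response score (7.20), and low-oxygen scores within numbers 3 and 4 run from 5.11 to 5.92.

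The same split was tested in the 12 CD4 libraries, sorted from spleen and cultured in the same way. Most tested genes of the low-oxygen response, glycolysis and cholesterol synthesis rose there. By edgeR's quasi-likelihood test with genotype as covariate, at a Benjamini-Hochberg adjusted p under 0.05, 2171 of 11902 genes were higher in numbers 3 and 4 (18.2%) and 2024 lower (17.0%). These shares are the background for the CD4 counts of each list. Same-numbered CD4 and CD8 libraries matched in sex in 12 of 12 cases, and the labels do not say whether they came from the same animal, so the CD4 libraries may not be an independent sample.

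Bnip3 rose in CD4 from a range of 7.05 to 16.45 CPM (median 12.2) to one of 50.8 to 109 CPM (median 93.0), a log2 change of 2.75 (SE 0.24, edgeR adjusted p = 1.49e-05). Egln3 rose by 2.64 (SE 0.42, edgeR adjusted p = 0.000527) and Ak4 by 1.80 (SE 0.19, edgeR adjusted p = 3.32e-05). The CD4 sets did not overlap for Bnip3, Egln3 or Ak4. In the lists, 27 of 36 tested low-oxygen genes and 23 of 26 glycolysis genes were called higher in CD4, with 2 and 1 called lower. Of cholesterol synthesis genes 20 of 22 were called higher and 0 lower. Of integrated stress response genes 26 of 30 were called lower and 2 higher, with a median log2 change of -0.45.

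Of the 202 genes higher in CD8 by 1.5-fold or more, 188 were tested in CD4, and 167 of them were called higher there (88.8%) and 1 lower. Over all 11452 genes tested in both, 18.1% were called higher in CD4. Those 167 made 8.06% of the 2071 genes called higher in CD4. Of 134 lower genes tested in both, 74 were called lower in CD4 (55.2%, against 17.4% of all) and 6 higher. Il23a fell in CD4 by 1.30 on the log2 scale (edgeR adjusted p = 0.0217), Tnfsf4 by 0.96 (edgeR adjusted p = 0.00087), Klrd1 by 1.67 (adjusted p = 0.000441) and Fasl by 0.97 (adjusted p = 0.000635). Across these genes Pearson's r of the CD8 and CD4 changes was 0.61 and Spearman's rho 0.49, as a description over genes that are not independent.

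**Figure D5:**
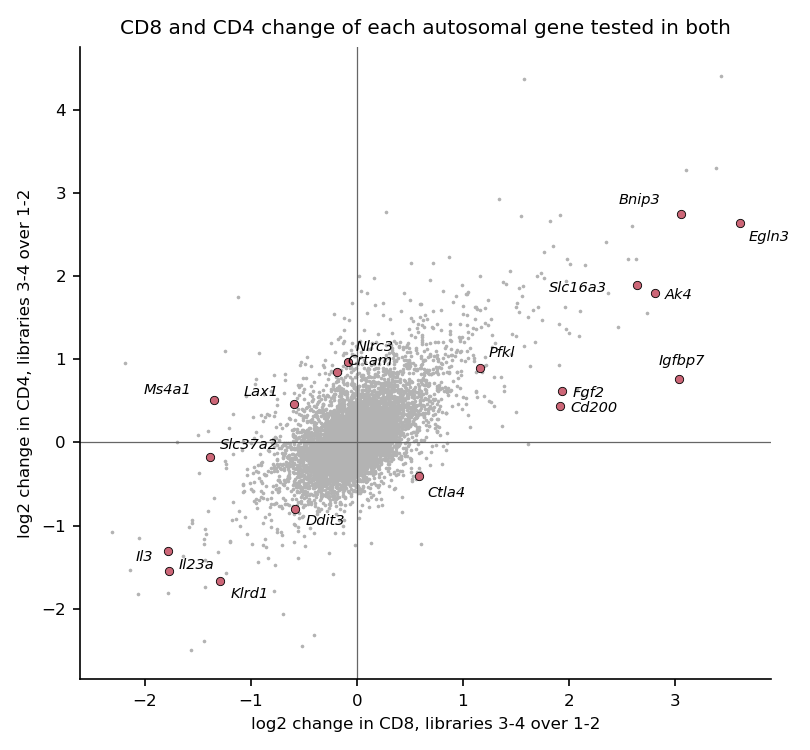
Each grey point is 1 of 11452 autosomal genes tested in both cell types, with its log2 change between number sets in CD8 (x) and CD4 (y), and 18 genes named in the text are in red. Bnip3 lies at 3.06 and 2.75, Cd200 at 1.92 and 0.44, and Crtam at -0.19 and 0.85.

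The CD8 and CD4 changes are set side by side here with no test of their difference, because the CD8 counts chose the split. A model of the difference over all 24 libraries put 321 of 12535 genes (2.56%) past an adjusted p of 0.05 with a higher change in CD8 and 429 (3.42%) with a lower one, and nothing is read from these counts, which ran from 131 to 666 and from 261 to 637 when each library was left out. The log2 changes in CD8 and CD4 were 3.61 and 2.64 for Egln3, 3.06 and 2.75 for Bnip3 and 2.81 and 1.80 for Ak4. By list, over the members tested in each cell type, the CD8 and CD4 medians were 0.58 and 0.58 for the low-oxygen response and 0.65 and 0.61 for glycolysis. For cholesterol synthesis they were 0.25 and 0.70, and the CD8 value without the KO library numbered 2 was 0.11. For the integrated stress response they were 0.01 (0.14 without that library) and -0.45. Ribosome biogenesis genes had medians of 0.15 and -0.09, and naive and memory genes of -0.40 and 0.08.

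The genes that follow were named above or had a low p in that model of the difference. Since it draws on the CD8 counts that chose the split, their values are a description. Cd200 had a change of 1.92 in CD8 and 0.44 in CD4, where its level was higher in both sets (384 to 507 CPM in numbers 1 and 2, 521 to 640 in numbers 3 and 4). Ctla4 had a change of 0.59 in CD8, whereas in CD4 it fell by 0.40 on the log2 scale (edgeR adjusted p = 0.00721). Igfbp7, a secreted binding protein, was 0.285 to 0.825 CPM in numbers 1 and 2 and 2.01 to 6.86 in numbers 3 and 4 of CD8, and 7.71 to 11.7 and 9.71 to 27.3 CPM in CD4. Its changes were 3.04 and 0.76. The CD8 level of Igfbp7 in numbers 1 and 2 was close to that of 3 counts. The filter on low counts, grouped by number set, could keep it on numbers 3 and 4 alone, so the size of its CD8 change is uncertain. Fgf2 had changes of 1.94 and 0.62, Icos of 0.76 and 0.12, and Irf4 of 0.29 and -0.11. Gdf11, a growth factor gene of the TGF-beta family, had changes of 0.51 in CD8 and -0.31 in CD4.

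Other genes had a lower change in CD8 than in CD4. Crtam, an adhesion receptor of activated T cells, was 221 to 320 CPM in numbers 1 and 2 and 203 to 258 in numbers 3 and 4 of CD8, with overlap. In CD4 it rose, with 11.6 to 17.5 CPM in numbers 1 and 2 and 19.6 to 30.6 in numbers 3 and 4 (log2 change 0.85, edgeR adjusted p = 2.41e-05). The adaptor gene Lax1 had changes of -0.59 and 0.46, Dzip1 of -0.75 and 0.45, and Ticam2, an adaptor of Toll-like receptors, of -0.47 and 0.42. Nlrc3 had changes of -0.085 and 0.97, Ift80 of -0.36 and 0.36, and Cd27 of -0.46 and 0.15.

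Whether the CD8 difference between number sets depended on genotype was tested with 2 degrees of freedom. No gene passed by edgeR's quasi-likelihood test (0 of 11833, 0%), with 817 genes at an unadjusted p under 0.05 and a lowest adjusted p of 0.575. DESeq2's likelihood ratio test called 7. Without the KO library numbered 1 edgeR called 248 genes, and without the one numbered 2 it called 1. In simulated counts a 2-fold change in 1 genotype was recovered for 54% of genes and a 1.5-fold change for 17%, so many differences of these sizes would not have been detectable.

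Transcript length, GC content and mean level were set beside the CD8 change for 11512 of 11833 genes. Spearman's rho across genes was 0.01 for length, 0.00 for GC content and 0.09 for mean CPM.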

How the data were processed

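Poly(A) RNA was measured in 24 libraries, in 6 groups of 4 by cell type and genotype, as labelled. Whether library numbers mark separate animals is not labelled, so p-values measure the spread between these libraries, which may be technical. The authors deposited raw STAR counts, whole numbers per gene, for 55401 genes. The deposited normalized signal, the raw counts over 1 factor per library, entered 1 alternative only. Per the submitters' processing notes, Trimmomatic 0.35, STAR 2.7.1a, DESeq2 1.26.0 and the build GRCm38 were used. Not given in the sources used here were strand setting and annotation release. Reads of a gene and its antisense partner may therefore be mixed. Summary lines of unmapped (4.91% to 5.31% of reads in CD8), multimapping (17.5% to 18.5%), featureless (7.08% to 9.55%) and ambiguous reads (1.02% to 1.09%) were kept out of library sizes. Columns of per-sample values left unused numbered 0.

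Counts were fitted in R 4.3.3 with edgeR 4.0.16 (TMM scaling over all genes, filterByExpr at a count of 10, quasi-likelihood test, 2-sided), on autosomal genes, with genotype as covariate. The filter was grouped by number set, and by cell type as well in the fit of both, so a gene could pass through 1 set alone. This left 11833 genes in CD8, 11902 in CD4 and 12535 over both, with common biological coefficients of variation of 0.108, 0.0894 and 0.0993. The threshold for a call was a p of 0.05 after Benjamini-Hochberg adjustment over all genes fitted. The log2 change divided by the root of the F statistic gave its standard error, and CPM are TMM-scaled. Counting floors of 3 counts cover counting error only. Libraries of a group were compared in 18 CD8 pairs, whose lowest chi-square per degree of freedom was 3.21, so none differed by less than sampling noise. Pipelines were tested on simulated counts: with 6 against 6 libraries and 11902 genes, 78% of 1.5-fold and 97% of 2-fold changes were recovered.

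The split, the members and the gene lists were chosen with earlier results of these data known. Named genes were Bnip3, Egln3, Ak4, Pou2af1, the 12 largest CD8 changes each way with no overlap and a mean of at least 5 CPM, up to 4 such members a list (or 2 overlapping ones), and up to 6 genes each way of lowest p in the difference from CD4. Antigen receptor segments and Gm or Rik gene models were not named. Other list members named in the text were chosen for their role after their values were seen. The difference between the CD8 and CD4 changes had been planned as a test, but it draws on the CD8 counts that chose the split and is given as values only. Alternatives were other scaling, no filter, DESeq2 1.42.0, sex as covariate, a 2-fold threshold, all chromosomes, 1 fit of all libraries, each genotype alone, a replicate block and leaving out each library. Tcrg-C1, Tcrg-C2 and Cd244 were listed but not found under those symbols. X-linked Pgk1, Nsdhl and Ebp were left out with the other sex-linked genes.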

Additional observations from a re-analysis of the deposited data

Results flagged for a closer look

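In 41 of 266 groups of 6 CD8 values (15.4%), the highest or lowest library lay far from the other 5 of its set by Dixon's ratio of gap to range. Its cutoff gives about 5% for independent values of normal spread. These groups share libraries and hold mostly genes chosen from these data, so that rate is no yardstick here. Of the 41 values apart, 33 were those of the KO library numbered 2. That library was the high one for Il23a (156 CPM, others 24.5 to 38.9), Il3 (23.0, others 5.97 to 10.1), Klrd1 (248, others 124 to 166) and Serpinb9 (698, others 485 to 548). It was also high for the stress factors Atf5 (35.8, others 7.59 to 13.0) and Ddit3 (39.8, others 4.55 to 13.2). The naive cell genes Ccr7 (733 CPM) and Satb1 (366 CPM) and the T cell surface genes Cd3d (288 CPM) and Cd5 (367 CPM) were high in it as well.

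The same library was the low one for glycolysis and lipid genes: Pfkl held 41.0 CPM (others 87.6 to 100.3), Tpi1 176 (others 329 to 407), Lss 29.5 (others 77.8 to 103), Elovl6 30.7 (others 67.2 to 86.3) and Acly 278 (others 382 to 408). In the pentose phosphate pathway, Pgd held 149 CPM and Tkt 332. Of cell cycle genes, Cdc6 held 76.1 CPM, Mcm4 343.1, Slbp 192.5, Tpx2 250.4, Aurkb 118 and Hmmr 205. Cited2 held 14.8 CPM, Ndufa8 38.8 and Nolc1 348. Its mean log2(CPM + 1) was lowest for cholesterol synthesis (5.14), glycolysis (5.86), S phase (7.39), G2/M phase (7.67), heat shock (7.43), nuclear oxidative phosphorylation (6.47) and ribosome biogenesis (7.76) genes.

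The Het library numbered 4 lay apart within numbers 3 and 4 for Ccna2 (419.6 CPM), the G2/M score (7.99), featureless reads (7.08%, others 8.31% to 8.71%) and ambiguous reads (1.08%, others 1.02% to 1.04%). The remaining single values were Idi2 in WT 3 (8.70 CPM), Klri2 in Het 3 (11.4 CPM), Lax1 in Het 1 (35.6 CPM) and Cd5 in KO 4 (215 CPM).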

How the results depend on the processing

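No named gene called in CD4 changed sign under the alternatives run, nor did any past the threshold in the difference. Calls were less stable than signs. In CD4 a named gene lost its call in 23 alternative fits, all of Ccna2, Srm, Slbp or Il23a. Ccna2 passed in 8 of 17 alternatives, Srm in 6, Slbp in 15 and Il23a in 16. In the difference, 45 alternative fits took a named gene back over the threshold. The CD4 counts stayed within 1.5 times of those given. Named CD8 genes free of overlap kept their sign, which their choice largely fixed. Some list medians changed sign, as the values below show. With a 2-fold threshold, 96 genes lay higher and 50 lower in CD8 with no overlap. Leaving out each library gave 204 to 241 and 138 to 190. The model of the CD8 minus CD4 difference draws on the counts that chose the split, so its numbers are no test. Against 321 higher and 429 lower changes in CD8, upper quartile scaling gave 209 higher, no filter on low counts gave 771 lower, and leaving out each library gave 131 (without CD8 Het 2) to 666 (without CD8 Het 3) and 261 (without CD8 Het 4) to 637. The genotype interaction called 537 genes with no filter, 7 by DESeq2, and 0 to 248 when each library was left out. Same-numbered CD4 and CD8 libraries correlated in their deviations from group means at 0.181 to 0.38 in 11 of 12 pairs and at 0.0531 in Het 4. With set means removed as well, the correlation ran from -0.0291 to 0.152. Pairing was not taken as given, and a shared animal cannot be told apart from a shared number. A replicate block of genotype and number put 313 higher and 479 lower. Read class differences ran from 0.132 to 0.213 percentage points for unmapped reads and from -0.0521 to -0.0385 for ambiguous reads, both past the threshold without the CD8 Het library numbered 4.

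The list median of inhibitory and costimulatory receptors was 0.26 with sex as covariate and 0.035 to 0.29 when each library was left out. With WT alone, list medians were -0.059 for the unfolded protein response, 0.068 for S phase, 0.066 for G2/M, -0.24 for naive and memory, 0.078 for immediate early, -0.19 for p53 target and -0.40 for B cell genes. With Het alone they were 0.32 for the integrated stress response, -0.041 for ribosomal protein, 0.045 for cytokine, 0.35 for inhibitory receptor, -0.24 for p53 target, -0.058 for CD8 marker and -0.91 for B cell genes. With KO alone they were 0.64 for cholesterol synthesis, -0.37 for the integrated stress response, 0.22 for the unfolded protein response, 0.26 for S phase, -0.22 for ribosomal protein, -0.44 for cytotoxic granule, -0.046 for effector fate, -0.16 for inhibitory receptor, -0.37 for immediate early, 0.32 for heat shock, -0.011 for p53 target and -0.23 for CD8 marker genes. These fits have 2 libraries against 2, and the cause of the moves was not tested.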
